A study of Mus musculus with 4 samples.

Results

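The Hox cluster genes are the 39 protein-coding genes of the mouse HoxA, HoxB, HoxC and HoxD clusters, of 21883 protein-coding genes in the GRCm38 RefSeq table. They were chosen by symbol, and their accessible regions were those lying inside a cluster, taken as the first to the last Hox gene end, or up to 100 kb beyond it. That gave 8 regions of 15328 in all. Accessibility was read by ATAC-seq, a method whose transposase tags exposed DNA with sequencing adapters, in the mouse erythroblast line G1ER. The study asked what loss of Chd7, an ATP-dependent chromatin remodeller, does to accessibility in these cells. The tested cells were Chd7-/- G1ER cells (Chd7-KO, 2 libraries), and the comparison cells were wild-type G1ER cells (WT, 2 libraries). Each library came from 50000 cells grown with EPO and SCF and given no treatment. The labels give a time of 1 h for both first replicates and 2 h for both second replicates. G1ER cells are known as a Gata1-null erythroid line that carries a GATA1 fused to the ligand-binding domain of the oestrogen receptor, so both genotypes share that background. The descriptions give the knockout libraries a shared code, and it is not stated whether this is a single clone. Nothing in the labels says that the replicates were separate cultures, so every spread and p-value below measures the difference between these libraries.

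Hox genes encode homeodomain transcription factors that specify position along the body axis, and in each cluster the order of the genes follows the order of their expression domains. In blood, several HoxA and HoxB genes are known for their activity in stem and progenitor cells and for their decline as cells differentiate, whereas clusters that are not in use are typically held by Polycomb complexes. Hox proteins bind DNA together with PBX and MEIS proteins, and MLL-type methyltransferases (Kmt2a) keep active Hox genes on.

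The data were 1 peak list per library. A peak is a stretch where the authors' caller found more fragments than the local background, and peaks of the 4 libraries that overlapped or touched were merged into 1 region. A region was called in a library when a peak of that library fell in it. A gene edge is the span 1 kb either side of a gene's start or end, and a gene with no region there is described as closed, which means below the calling threshold of these lists and not inaccessible. The Chd7-KO libraries held 12443 and 11376 nuclear peaks, against 11084 and 12043 in the WT libraries. Total reads were unknown. The lowest local background, used here as relative depth, was 1.04 and 1.01 fragments in the Chd7-KO libraries, against 0.787 and 1.08 in the WT libraries. Of 11 erythroid markers, 3 (27.3%) had an edge region in all 4 libraries, Epor and Tfrc among them, against 32.0% of all protein-coding genes, and Tal1 had one in 3 libraries. Gata1, Klf1 and Alas2 had no edge region but a region in all 4 libraries centred within 5 kb of an end. Hba-a1, Hbb-b1 and Slc4a1 had no linked region, and Hbb-bt had one in 1 library. Of 5 megakaryocyte markers, Gp9 had an edge region in all 4 libraries, and Itga2b and Pf4 had regions in all 4 centred 2.68 and 2.46 kb from an end. None of 9 neural and mesoderm, 7 granulocyte and macrophage or 5 lymphoid markers had an edge region in any library. The share of all protein-coding genes with one was 39.0%. Cebpe and Pax6 did have regions in all 4 libraries, centred 4.33 and 6.57 kb from an end. No region lay at or inside Chd7 in any library, so these lists do not check the knockout.

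The 4 sequences below differ in how many libraries called a region over them, and no test linked their letters to this. They are RefSeq promoters of GRCm38.p6, from 250 bases before to 50 bases after an annotated start, written 5′ to 3′ on the gene's strand. Lnpk and Mtx2 carry the nearest called regions on either side of HoxD. Lnpk (chr2:74578899-74579198, minus strand) was covered over all 300 bases by a region called in all 4 libraries, and Mtx2 (chr2:74825562-74825861, plus strand) was overlapped by 177 bases of a region called in the Chd7-KO libraries and not in the WT libraries. Hoxc4 (chr15:103034145-103034444, plus strand) was the 1 Hox promoter with any overlap, 159 bases of a region called in 1 WT library. Hoxa13 (chr6:52260831-52261130, minus strand) held the most CpG dinucleotides of the Hox promoters and had no region. Capitals mark matches on either strand to SP/KLF (CCGCCC), ETS (GGAAGT), RUNX (TGTGGT) or E-box (CACGTG) letters.
Lnpk: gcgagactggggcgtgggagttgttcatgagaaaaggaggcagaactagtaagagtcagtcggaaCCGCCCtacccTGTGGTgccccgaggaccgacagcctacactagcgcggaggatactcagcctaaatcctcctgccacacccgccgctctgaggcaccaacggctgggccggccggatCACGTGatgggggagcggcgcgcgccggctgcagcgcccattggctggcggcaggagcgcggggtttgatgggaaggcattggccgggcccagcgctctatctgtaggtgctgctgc
Mtx2: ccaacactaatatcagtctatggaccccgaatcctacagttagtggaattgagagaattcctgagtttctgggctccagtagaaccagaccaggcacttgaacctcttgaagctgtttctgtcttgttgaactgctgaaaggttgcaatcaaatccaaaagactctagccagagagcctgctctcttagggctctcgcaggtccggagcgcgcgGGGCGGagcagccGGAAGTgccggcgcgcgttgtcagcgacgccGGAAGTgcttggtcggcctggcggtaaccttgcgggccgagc
Hoxc4: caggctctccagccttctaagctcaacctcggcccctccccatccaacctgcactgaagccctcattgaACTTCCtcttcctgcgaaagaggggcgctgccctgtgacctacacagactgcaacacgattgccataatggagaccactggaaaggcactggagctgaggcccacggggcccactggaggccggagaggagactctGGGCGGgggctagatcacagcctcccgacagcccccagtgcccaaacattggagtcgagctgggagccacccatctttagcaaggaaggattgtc
Hoxa13: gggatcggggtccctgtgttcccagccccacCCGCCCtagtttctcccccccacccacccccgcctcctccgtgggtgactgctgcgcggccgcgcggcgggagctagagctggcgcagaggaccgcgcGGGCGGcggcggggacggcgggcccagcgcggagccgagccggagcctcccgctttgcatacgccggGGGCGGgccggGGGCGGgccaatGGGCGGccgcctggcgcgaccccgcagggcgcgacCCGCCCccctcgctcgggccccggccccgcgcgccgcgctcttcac

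**Figure D1:**
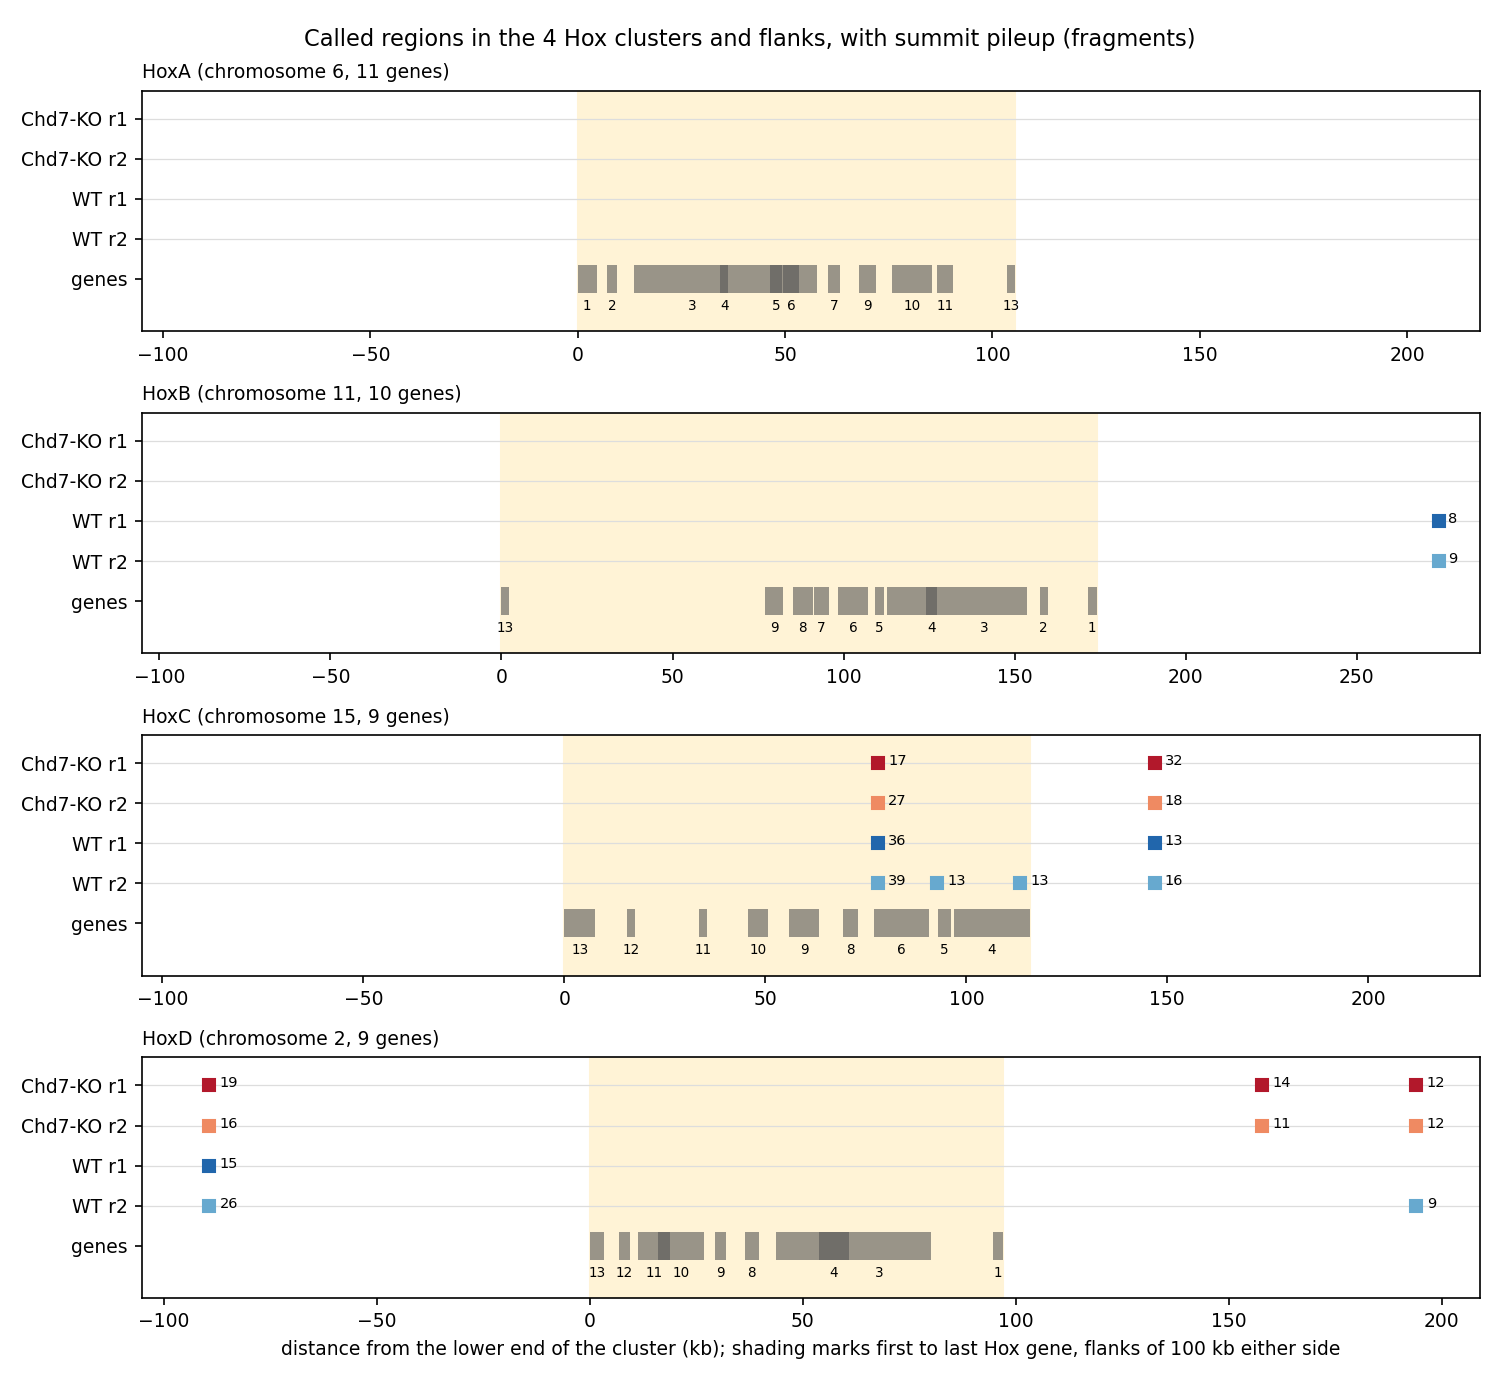
Called regions in each Hox cluster and its flanks. The x axis is the distance in kb from the lower end of the cluster, rows are the 2 Chd7-KO libraries above the 2 WT libraries, squares are called peaks with their summit pileup in fragments, grey boxes are Hox genes named by number, and shading marks the cluster. HoxA has no square in any library, HoxB and HoxD have none inside the cluster, and HoxC has 3 regions inside.

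Of the 39 Hox genes, Hoxc6 and Hoxc5 had an edge region in at least 1 library (background, 39.0% of all protein-coding genes), and Hoxc6 alone had one in all 4 libraries, 2.56% of Hox genes against 32.0% of all protein-coding genes. The 11 Hoxa genes, 10 Hoxb genes and 9 Hoxd genes were closed at both ends in every library. Hoxc4 had a region inside the gene and none at its edges. Without WT replicate 2, the 1 library that called the Hoxc5 region, the count of Hox genes with an edge region was 1. The median Hox gene lay 118 kb from the nearest region, against 5.64 kb for all protein-coding genes, and 21.7% of all genes lay at least as far away. For 32 of the 39 Hox genes the nearest region was at least 50 kb away, as it was for 31.8% of all genes. Protein-coding genes were dense in the clusters, at 79.3 per Mb inside the clusters against 8.25 per Mb in the genome. Regions numbered 6.10 per Mb inside the clusters, all of them in HoxC, and 6.19 per Mb with the flanks. The genome held 5.78 per Mb. Neighbouring Hox genes share the same region-free stretches, so the shares of genes above do not count independent loci.

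HoxA (chr6:52155367-52260880) holds 11 genes, among them Hoxa9 and Hoxa10, known for their activity in blood progenitors and myeloid leukaemia. No region was called in its 106 kb or in either flank. The region-free stretch around it ran for 627 kb, and 6.37% of the 15307 gaps between neighbouring regions were at least that long, with a median gap of 38.2 kb. It was bounded by regions called in all 4 libraries at the edge of Skap2, an adaptor protein gene, 142 kb from the cluster, and near Hibadh, a valine catabolism gene, 379 kb from it. Hoxa9 lay 210 kb from the nearest region and Hoxa13, at the far end, lay 246 kb from it. The shares of gaps given here and for the other clusters count every gap once. A given locus is likelier to fall in a long gap than in a short one. These shares therefore understate how much of the genome lies in gaps of such length.

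HoxB (chr11:96194316-96368254) holds 10 genes, including Hoxb4, known for expanding haematopoietic stem cells when overexpressed. Its 174 kb held no region, and the gap around it measured 392 kb, with 9.51% of gaps at least as long. The left bound was a region near Atp5g1, a mitochondrial ATP synthase gene, 118 kb away and called in all 4 libraries. The right bound was the 1 region in the flanks, inside Skap1, a T-cell adaptor gene (chr11:96468231-96468723). It was called in both WT libraries, with summit pileups of 8 and 9 fragments, and in neither Chd7-KO library. Summit pileup is the number of fragments stacked at the highest point of a peak, recovered as a whole number from the deposited values. The fold enrichment of this region, the authors' ratio of pileup to local background, was 5.04 and 4.42 in the WT libraries, at percentiles 9.30 and 4.62 of their own lists, and its −log10 q was 3.90 and 3.25. It began 99977 bases beyond the cluster, just inside the 100 kb limit, and its middle lay 100223 bases beyond. The next region to the right, near Snx11, was 409 kb away.

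HoxC (chr15:102921131-103036856) was the 1 cluster with regions inside, 3 of them covering 1549 of its bases, or 1.34%. All 3 lay at the end of the cluster that carries Hoxc6, Hoxc5 and Hoxc4. Hoxc13, Hoxc12, Hoxc11, Hoxc10, Hoxc9 and Hoxc8 had no region, at distances of 69.9 kb for Hoxc13 to 4.44 kb for Hoxc8. The gap on that side ran for 276 kb to a region at the edge of Calcoco1, and 12.6% of gaps were as long. On the other side the next region past the flank was 126 kb away, near Smug1, a DNA repair glycosylase gene.

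The region at the lower end of Hoxc6 (chr15:102998717-102999672, 956 bp) was called in all 4 libraries. Its summits fell within 55 bases of each other, inside the annotated gene. The region also came within 1 kb of the long non-coding gene Gm29905. Its summit pileup was 17 and 27 fragments in the Chd7-KO libraries, against 36 and 39 in the WT libraries. Both knockout values lay below both WT values, as did values centred on each library's median for 17.3% of all tested regions. Its fold enrichment was 6.34 and 9.09 in the Chd7-KO libraries, against 11.3 and 9.76 in the WT libraries, at percentiles 34.4 and 66.6 against 78.6 and 67.7 of each list. The local background around this summit, as a multiple of the lowest in its library, was 1.78 and 2.06 in the Chd7-KO libraries, against 2.87 and 2.88 in the WT libraries. Over all peaks the median of that multiple was 1.64 and 1.62 in the Chd7-KO libraries, against 1.88 and 1.76 in the WT libraries. The part of background in the difference in pileup was not tested.

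The other 2 regions inside HoxC were called in WT replicate 2 and in no other library. One lay at the edge of Hoxc5 (chr15:103013728-103013927, 200 bp), 81 bases from the gene and 983 bases from the microRNA gene Mir615, with a pileup of 13 and a fold enrichment of 4.83. The other lay inside Hoxc4 at the printed promoter (chr15:103034286-103034678, 393 bp), with a pileup of 13 and a fold enrichment of 5.30, and also overlapped the long non-coding gene Gm30528. They stood at percentiles 9.10 and 15.7 of that list. Over the genome, 21.7% of regions were called in 1 library.

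The flank beyond Hoxc4 held the last HoxC region, 30.9 kb from the cluster and in no annotated gene (chr15:103067717-103068296, 580 bp). It was called in all 4 libraries, with summits within 132 bases. Its pileup was 32 and 18 fragments in the Chd7-KO libraries, against 13 and 16 in the WT libraries. Both knockout values lay above both WT values, with replicate 1 of the knockout well above the rest. Its fold enrichment was 11.1 and 7.54 in the Chd7-KO libraries, against 6.54 and 6.91 in the WT libraries. The knockout values of the 2 HoxC regions called in all 4 libraries thus lay on opposite sides of their WT values. These pileups are not scaled for depth. With values centred on each library's median, 17.3% of all tested regions had both knockout values below both WT values. For 21.4% they lay above.

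HoxD (chr2:74668225-74765142) holds 9 genes and had no region in its 96.9 kb. The gap around it measured 246 kb, and 13.8% of gaps were as long. It was bounded by the printed promoters' regions, at Lnpk and at Mtx2. The Lnpk region (chr2:74578664-74579198, 535 bp), 89.0 kb from the cluster, covered one end of Lnpk, which encodes an endoplasmic reticulum junction protein. Its pileup was 19 and 16 fragments in the Chd7-KO libraries, against 15 and 26 in the WT libraries. The groups overlapped, and the highest value was that of WT replicate 2.

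Mtx2 encodes a mitochondrial outer membrane import protein. The region at its start (chr2:74825685-74826344, 660 bp), 60.5 kb beyond Hoxd1, was called in both Chd7-KO libraries and in neither WT library. Its pileup was 14 and 11 fragments in the Chd7-KO libraries and its fold enrichment was 7.14 and 5.66, at percentiles 45.1 and 24.5. Its −log10 q was 8.80 and 5.50. No level is known for the WT libraries, since the lists hold no value below the calling threshold; their lowest recovered pileups anywhere were 6 and 7 fragments. A second region lay inside Mtx2, 96.8 kb beyond the cluster (chr2:74861984-74862505, 522 bp). Its pileup was 12 and 12 fragments in the Chd7-KO libraries, against 9 in WT replicate 2, and it was not called in WT replicate 1. Just outside the 100 kb limit, a further region linked to Mtx2 (chr2:74891890-74892279) was called in all 4 libraries, with 8 and 7 fragments in the Chd7-KO libraries, against 9 and 17 in the WT libraries. Farther out, another linked region (chr2:74955915-74956299) had 19 and 18 fragments in the Chd7-KO libraries, against 14 in WT replicate 2. It was not called in WT replicate 1.

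**Figure D2:**
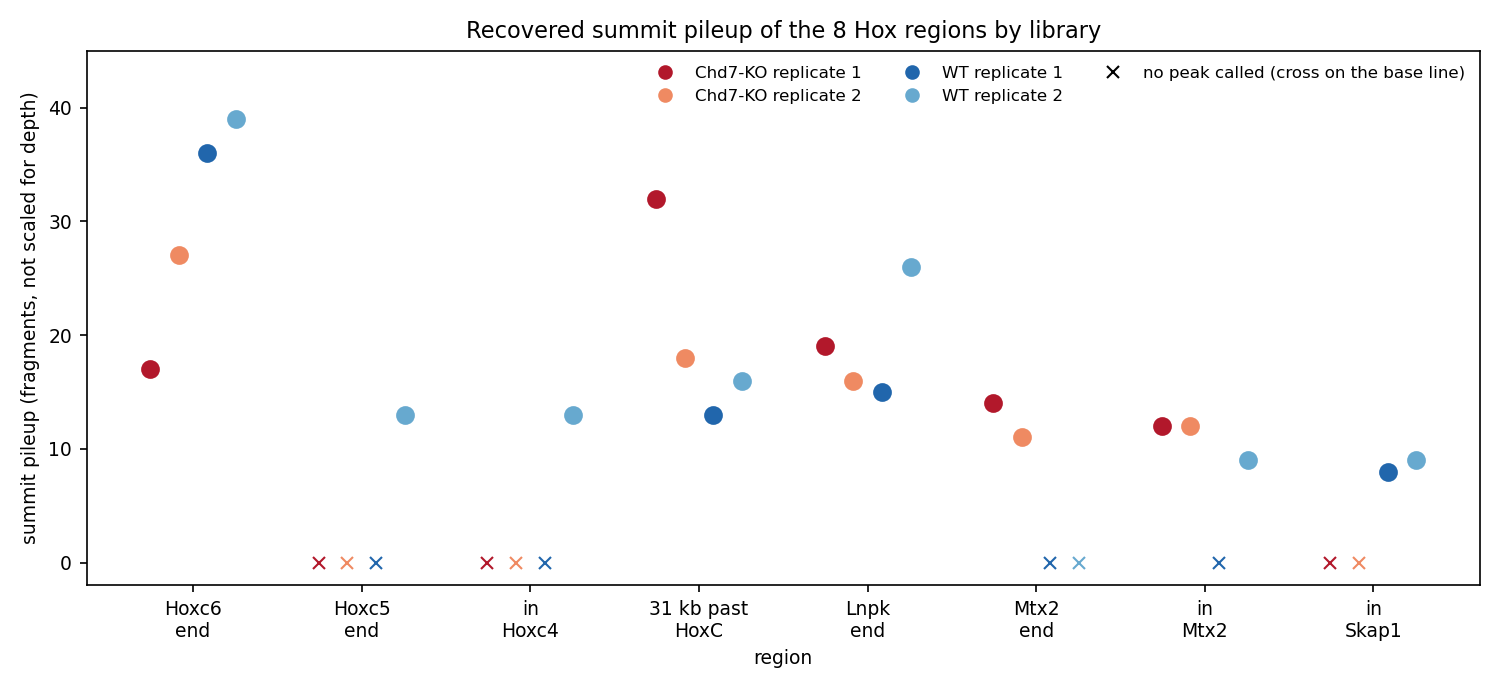
Summit pileup of the 8 Hox regions in each library. The y axis is fragments at the summit, not scaled for depth, points are single libraries with the 2 Chd7-KO libraries left of the 2 WT libraries, and crosses on the base line mark libraries with no called peak, whose level is unknown. At Hoxc6 the knockout points (17 and 27) lie below the WT points (36 and 39), and past HoxC they lie above (32 and 18 against 13 and 16). With values centred on each library's median, 17.3% of all tested regions lay below in this way and 21.4% above.

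By genotype, 1 of the 8 Hox regions was called in both Chd7-KO libraries alone, the Mtx2 start region (background, 2.71% of all regions), and 1 was called in both WT libraries alone, the Skap1 region (background, 2.25%). The count for WT alone was 0 with lists of equal length and with a −log10 q of at least 5. Both lay in flanks, and no Hox gene edge differed in this way. Called in all 4 libraries were 3 of the 8, or 37.5%, against 56.8% of all regions. The Chd7-KO libraries called 5 and 5 of the 8 Hox regions, against 4 and 7 in the WT libraries. The means were 5 ± 0 in Chd7-KO and 5.5 ± 2.12 in WT (SD, n = 2 each), and the difference of -0.5 gave an exact two-sided permutation p of 1, where the smallest p this design allows is 0.333. Without WT replicate 2 the difference was 1 and the count for Chd7-KO alone was 2, with the region inside Mtx2 added. That class then required absence from WT replicate 1 only, and over all regions it rose from 415 of 15328 to 957 of 14553. Without WT replicate 1 the count for WT alone was 3, with the Hoxc5 and Hoxc4 regions added. The only WT call then required was that of WT replicate 2. Over all regions that class rose from 345 of 15328 to 1235 of 14885. Inside the clusters the counts were 1 and 1 in the Chd7-KO libraries, against 1 and 3 in the WT libraries.

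Pileups could be compared where a region was called in all 4 libraries. The difference was taken as log2(pileup + 1) after subtraction of each library's median and was fitted with limma over 8704 regions, so that a positive value is higher in Chd7-KO. With Benjamini-Hochberg adjustment, limma called 0 of the 8704 regions (background, 0.0%) and 0 of the 3 Hox regions at an adjusted p of 0.05. Before adjustment, p was under 0.05 for 758 regions (8.71%) and for 2 of the 3 Hox regions. Without Chd7-KO replicate 2, limma called 2 of the 3 Hox regions and 55 of 9249 regions in all. The median of the 3 Hox regions was -0.09 on the log2 scale, against 0.02 for all regions tested. That median is the value of the Lnpk region, with Hoxc6 at -0.70 and the region past HoxC at 0.78.

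At Hoxc6 the log2 difference was -0.70 (SE 0.26, 95% interval -1.28 to -0.11, limma adjusted p = 0.489). The centred log2 values were -0.58 and 0.22 in the Chd7-KO libraries, against 0.57 and 0.46 in the WT libraries. The genotypes did not overlap, as for 17.3% of all tested regions with Chd7-KO below WT. By labelled time, Chd7-KO was lower by a log2 difference of -1.15 at 1 h and -0.24 at 2 h. Without Chd7-KO replicate 2 the difference was -1.13 (limma adjusted p = 0.0278), and without Chd7-KO replicate 1 it was -0.32 (limma adjusted p = 0.814). Without Chd7-KO replicate 2, 0.595% of all regions passed. With each library scaled by its lowest background in place of its median, limma gave -0.93 (adjusted p = 0.0447). Under that scaling 0.804% of all regions passed and the median of all regions was -0.21. In that fit, and in the fit without Chd7-KO replicate 2, limma gave all regions the same variance. The p-values of those fits therefore did not use the spread at Hoxc6 itself. Over all 10 alternatives its adjusted p ranged from 0.0278 to 0.814.

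At the region past HoxC the log2 difference was 0.78 (SE 0.23, 95% interval 0.26 to 1.30, limma adjusted p = 0.387). The centred log2 values were 0.29 and -0.34 in the Chd7-KO libraries, against -0.84 and -0.77 in the WT libraries. The genotypes did not overlap, as for 21.4% of all tested regions with Chd7-KO above WT. The difference was 1.13 at 1 h and 0.43 at 2 h. Without Chd7-KO replicate 2 it was 1.06 (limma adjusted p = 0.0422), and without Chd7-KO replicate 1 it was 0.44 (limma adjusted p = 0.667). Over its 9 alternatives the adjusted p ranged from 0.0422 to 0.713. At Lnpk the difference was -0.09 (SE 0.22, 95% interval -0.58 to 0.40, limma adjusted p = 0.948).

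**Figure D3:**
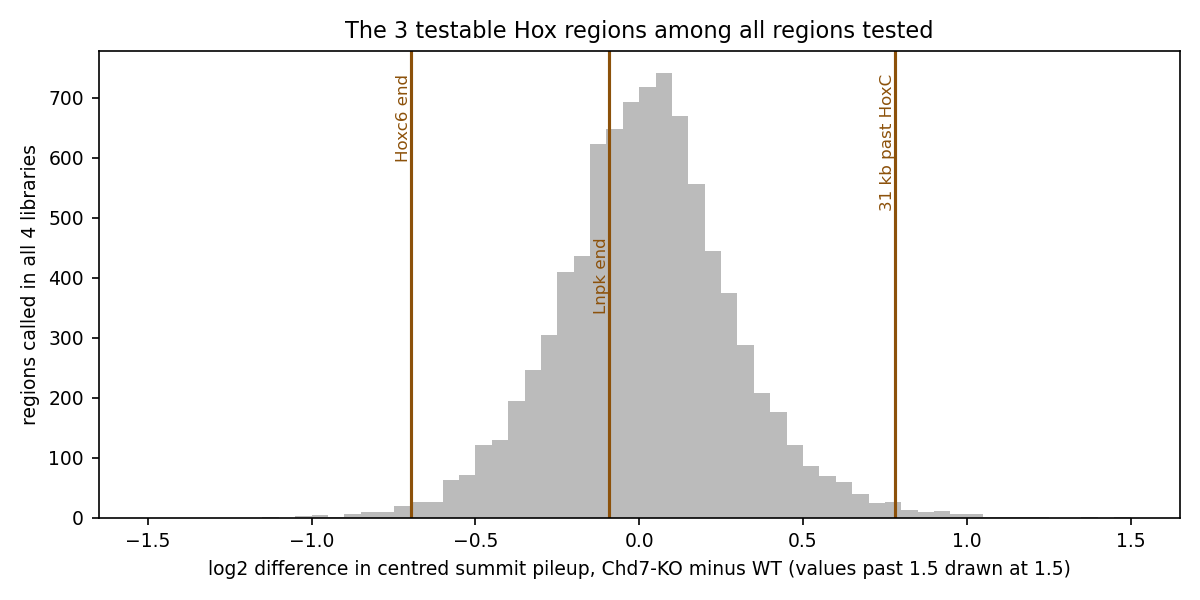
The 3 Hox regions called in all 4 libraries among all 8704 regions tested. The x axis is the log2 difference in centred summit pileup, Chd7-KO minus WT, the grey bars count all regions, and the lines mark the Hox regions. Hoxc6 (-0.70) and the region past HoxC (0.78) lie toward opposite ends of the distribution, and Lnpk (-0.09) near its middle.

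Apart from Hoxc4 in 1 library, the Hox promoters with a window were closed, and many of them were rich in CpG. Promoter windows were available for 22 of the 39 genes, 24 windows in all, and the Hoxc6 window was not among them. Their median CpG count was 14.5 with a range of 4 to 45, against a median of 13 for 21262 protein-coding promoters, and their median GC content was 57.7% against 56.3%. A region called in all 4 libraries overlapped 0 of the 24 Hox windows, against 30.9% of all windows, and a region of any library overlapped 1, that of Hoxc4, against 37.4%. Over all genes, open windows became more frequent with CpG count, from 0.878% at 0 to 4 CpG to 62.9% at 25 to 29 CpG, and stood at 59.4% at 30 or more CpG, the bin of Hoxa13. Of 12 Hox windows at or above the Hox median, 0 were open, against 57.3% of the 9956 protein-coding windows in that range. All 12 lay in HoxA or HoxD, which held no region inside, so this 0 follows from that earlier result. The printed Hoxa13 promoter held 45 CpG and a GC content of 81%, against 25 CpG for Lnpk, 19 for Mtx2 and 9 for Hoxc4.

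**Figure D4:**
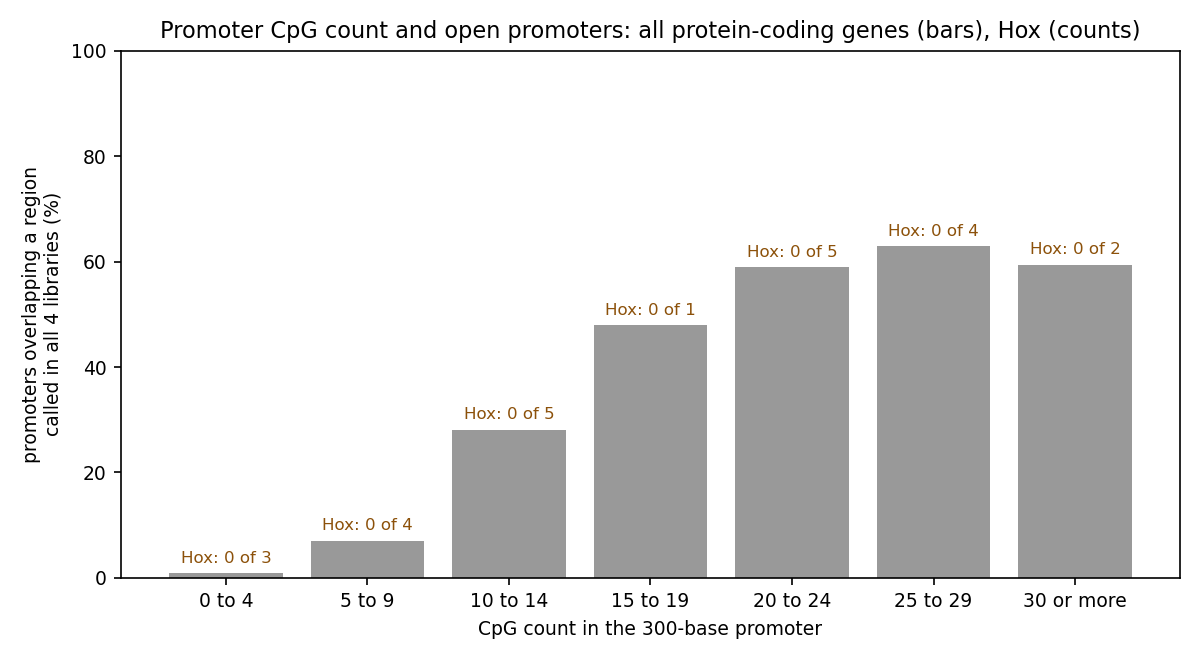
Open promoters by CpG count. The x axis is the number of CpG in the promoter window, bars are the percentage of protein-coding promoters overlapping a region called in all 4 libraries, and text over the bars gives the count of open Hox promoters. No Hox window overlaps such a region in any bin, including those where 58.9% to 62.9% of all promoters were open. All of these Hox windows but that of Hoxc4 lie in clusters with no region inside.

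Motif letters were searched on both strands in the same windows, each motif counted apart, so that overlapping matches count for both. SP/KLF letters (CCGCCC) were in 10 of the 24 Hox windows (41.7%), against 46.2% of all windows and 73.9% of those open in all 4 libraries, and the closed Hoxa13 promoter held 6 matches. E-box letters (CACGTG) were in 5 Hox windows (20.8%), against 7.84% of all. These were windows of Hoxd13, Hoxd11, Hoxd10, Hoxd4 and Hoxd1, so all lay in HoxD. TATA letters (TATAAA) were in 4 (16.7%), against 12.6% of all. PBX-HOX letters (TGATTNAT), a site form bound by Hox proteins with PBX, were in 2 (8.33%), those of Hoxa2 and Hoxd11, against 2.75% of all. GATA letters (GATAAG) were in 2, those of Hoxb4 and Hoxd8, against 6.92% of all. ETS letters (GGAAGT) were in 2, against 24.8% of all. RUNX letters (TGTGGT) were in 1, that of Hoxd10, against 3183 of all 21262, and AP-1 letters (TGANTCA) were in 1, that of Hoxd11, against 6.99%.

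The clusters also carry non-coding genes. Of 24 long non-coding RNA genes inside the clusters, Gm29905, which the Hoxc6 region adjoins, had an edge region in all 4 libraries and the other 23 had none in any. These included Hotair and Hotairm1, known for their action on HoxD in human cells and on HoxA in myeloid cells. Most of the 24 lie in HoxA, HoxB or HoxD, which held no region inside, so the count largely repeats that result. The share over all long non-coding RNA genes was not computed. Of the 6 microRNA genes, Mir615 lay within 1 kb of a region called in 1 library. The others, Mir10a, Mir10b, Mir196a-1, Mir196a-2 and Mir196b, known as regulators of Hox transcripts, lay 25.3 to 217 kb from the nearest region.

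Of the lists of genes that act with or on Hox genes, limma called none of the testable regions, as it called 0 of all 8704 regions. A count of 0 for a list below therefore says nothing particular about that list. Of the PBC and MEIS cofactor genes, Pbx2, Pbx3, Pbx4 and Pknox1 had an edge region in all 4 libraries (44.4% of the list, background 32.0%). Meis1, Meis2, Meis3 and Pknox2 had none. Limma called 0 of the list's 5 testable regions, and their log2 differences ranged from -0.31 to 0.54. The highest was a region centred 44.7 kb from Meis1, with 18 and 12 fragments in the Chd7-KO libraries, against 9 and 12 in the WT libraries (limma adjusted p = 0.495).

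Of 12 activators of Hox chromatin, 10 (83.3%) had an edge region in all 4 libraries, against 32.0% of all protein-coding genes. Among them were Kmt2a, its partner Men1 and the H3K79 methyltransferase Dot1l. The exceptions were the H3K27 demethylase genes Kdm6a and Kdm6b, whose nearest regions in all 4 libraries were centred 1.61 and 1.51 kb from a gene end. Limma called 0 of 17 testable regions. The list's median log2 difference was -0.12. Its highest value was 0.81 (limma adjusted p = 0.363), at a region linked to Aff1, an elongation factor scaffold gene, and its lowest was -0.62 (limma adjusted p = 0.52), at a region linked to Mllt3, with -0.54 (limma adjusted p = 0.461) at Men1. Boundary factors organise chromatin loops at Hox clusters. Of the 8 listed, Ctcf, Smc1a, Smc3, Stag2 and Maz were open in all 4 libraries (62.5% of the list, background 32.0%). Limma called 0 of 6 regions. A region linked to the cohesin gene Stag1 (chr9:100963075-100963422) was called in both Chd7-KO libraries, with 10 and 11 fragments, and in neither WT library, a class that held 2.71% of all regions. Of 6 caudal and ParaHox genes, sister homeobox genes that act upstream of or arose beside the Hox genes, 0 had an edge region in any library. The share over all protein-coding genes was 39.0%.

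Of 11 non-Hox genes linked to the clusters, Skap2, Hnrnpa2b1, Cbx3, Cbx5 and Calcoco1 had an edge region in all 4 libraries (45.5%, background 32.0%). Evx1 and Evx2, homeobox genes next to HoxA and HoxD, had none. Hnrnpa2b1 and Cbx3 share 1 region, which had 63 and 54 fragments in the Chd7-KO libraries, against 47 and 65 in the WT libraries. Limma called 0 of 6 testable regions of this list, whose median log2 difference was 0.05. Of 5 retinoic acid and Geminin regulators, Gmnn and Ncor1 were open in all 4 libraries (40% of the list, background 32.0%). Rarg, a retinoic acid receptor gene on the HoxC chromosome, had a linked region called in both WT libraries, with 14 and 17 fragments, and in neither Chd7-KO library, a class that held 2.25% of all regions.

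**Figure D5:**
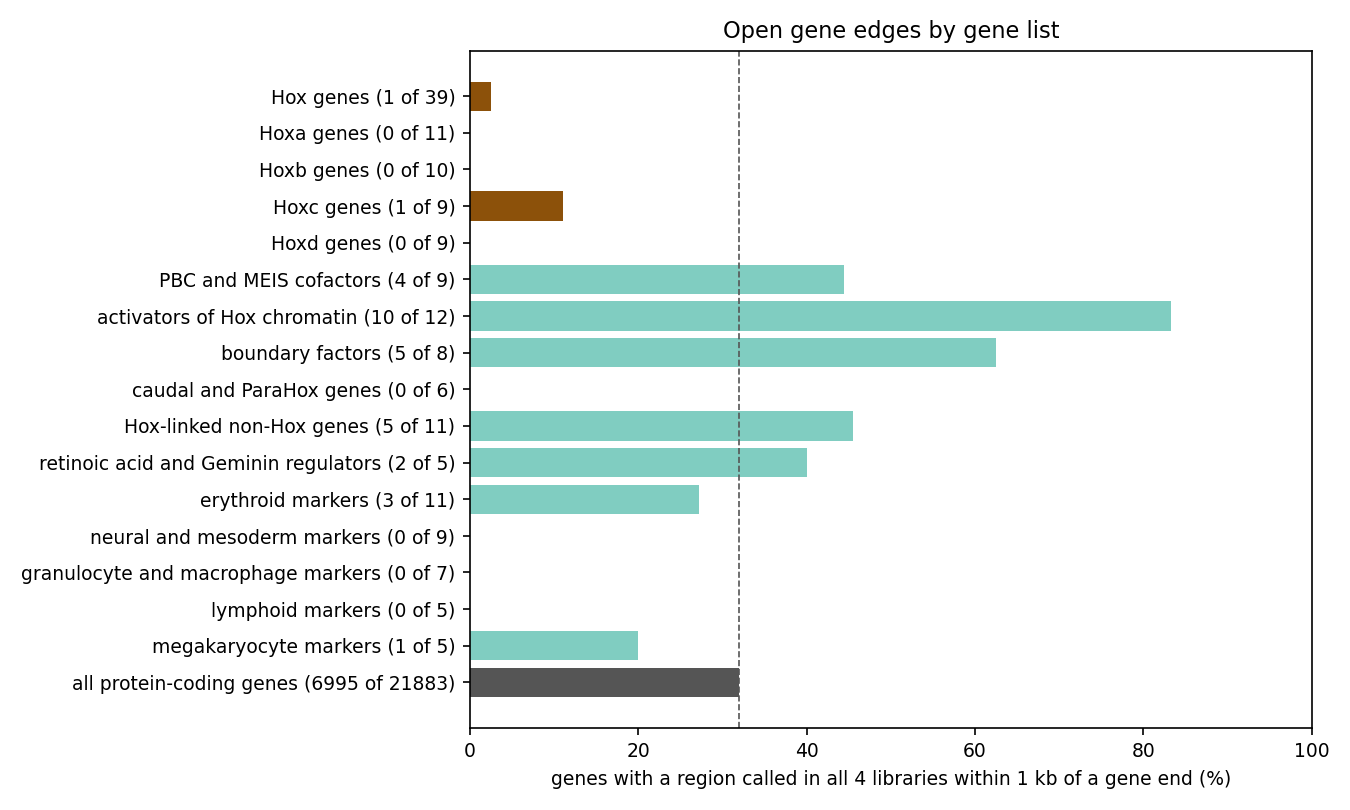
Share of genes with a region called in all 4 libraries at a gene edge, by list. The x axis is a percentage from 0 to 100, bars are lists with their counts, and the dashed line is the share over all protein-coding genes (32.0%). Hox genes stand at 1 of 39 and activators of Hox chromatin at 10 of 12.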

How the data were processed

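ATAC-seq peak lists of 2 Chd7-KO and 2 WT libraries were used, 1 per library and not pooled. Per the submitters' processing notes MACS2 2.1.0 and Bowtie2 2.2.1 were used, without a stated role, and the build, GRCm38, stands in the deposited peak names; threshold, control, read shift and duplicate removal are not stated in the sources used here. The deposited score is about 10 times the authors' −log10 q. The deposited fold enrichment is the authors' ratio of pileup to background, and the authors also deposited the −log10 p and −log10 q of each peak.

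From these, 2 mitochondrial peaks per library were left out, and pileup and background were solved from fold enrichment and Poisson p (tolerance 0.001 in −log10 p; 99.99% of peaks), which assumes unscaled pileups. Peaks were merged where they overlapped or touched, and bedtools 2.31.1 gave the same 15328 regions. A region was linked to the protein-coding gene with the nearest end within 100 kb. The gene table (RefSeq, GRCm38.p6) held no strand or exons, so either end stands for the start. Sequences and promoter windows came from RefSeq tables of the same build. Limma 3.58.1 in R 4.3.3 was run on log2(pileup + 1), so low regions are understated; 1 region called in all 4 libraries without a recovered pileup was left out. Counts per library were compared by an exact permutation test. Scripts ran in Python 3.11.15 and were tested on simulated data.

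The Hox genes, the gene lists and the alternatives were chosen with earlier results of these data known. Regions were named if called in at least 2 libraries inside a cluster, in both libraries of 1 genotype alone, or among the 3 strongest called in all 4 libraries in a flank. Added after their values were seen were the 2 regions called in WT replicate 2 alone and the second Mtx2 region. The Mtx2 regions past the limit were added in the same way. Some genes of the lists are not reported here by name. One marker, Tbxt, had no entry under that symbol in the gene table.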

Additional observations from a re-analysis of the deposited data

Results flagged for a closer look

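The number of Hox regions called differed in direction between the labelled times. At 1 h Chd7-KO replicate 1 called 5 and WT replicate 1 called 4, a difference of 1, and at 2 h Chd7-KO replicate 2 called 5 and WT replicate 2 called 7, a difference of -2. The Lnpk region did likewise, with a log2 difference in centred pileup, Chd7-KO minus WT, of 0.21 at 1 h and -0.39 at 2 h. With 1 library of each genotype at each time, neither difference between times was tested.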

How the results depend on the processing

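The 8 Hox regions became 4 with flanks of 50 kb and 3 with the clusters alone, and were 6 to 8 with 1 library left out. Hox regions called in both Chd7-KO libraries alone numbered 1, and 0 with either shorter flank. They numbered 2 with lists of equal length and when every library was held to a −log10 q of at least 5. The second was the region inside Mtx2. Over all regions that class held 415 of 15328, against 364 of 14275 with lists of equal length and 283 of 12908 at that threshold. Without 1 library the Hox count was 1 to 2, with 2 when WT replicate 2 was left out (957 of 14553 over all regions). Hox regions called in both WT libraries alone numbered 1, but 0 with lists of equal length, with either −log10 q threshold and with either shorter flank. Over all regions that class held 345 of 15328, against 388 of 14275 with lists of equal length. It held 387 of 12908 with the threshold in every library and 158 of 15328 with it in the calling genotype alone. Without 1 library the Hox count was 1 to 3, with 3 when WT replicate 1 was left out (1235 of 14885 over all regions). The difference in Hox regions per library, Chd7-KO minus WT, turned from -0.5 to 0.5 with lists of equal length and to 1.5 with a −log10 q of at least 5 (exact permutation p = 0.333, the smallest possible), and ran from -2 to 1 without 1 library, 1 being the value without WT replicate 2. Hox genes with an edge region numbered 1 in place of 2 at that threshold, and 1 to 2 without 1 library, Hoxc5 being lost without WT replicate 2.

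In the limma comparison, scaling by lowest background gave 70 regions past an adjusted p of 0.05 (0.804%), 1 of them Hox: Hoxc6, at -0.93. Without 1 library 0 to 55 regions passed, 0 to 2 of them Hox, with 55 (0.595%) and 2 when Chd7-KO replicate 2 was left out; the lone library of a genotype is then assumed to vary like the others. Hoxc6 ran from -1.13 to -0.32, the region past HoxC from 0.44 to 1.06, Lnpk from -0.35 to 0.15 and the Hox median from -0.15 to 0.15. Lnpk was 0.15 without WT replicate 2. With a mean pileup of at least 20, Hoxc6 was the 1 Hox region left, so the Hox median was -0.71. The cause of the other changes was not tested. Replicate numbers coincide with labelled time, but same-numbered libraries did not deviate together (r = 0.00217 over 8704 regions). With the replicate block as a covariate limma called 2 regions, 0 of them Hox, and the block left the count difference at -0.5 (exact permutation p = 1).

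Limits: peak lists hold no level for uncalled regions, total reads are unknown, and 2 libraries per genotype give few degrees of freedom.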
